A study of Mus musculus with 8 samples.

Results

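The genes described here are those of the cell-cycle engine and the p53 axis in mouse cardiac endothelial cells (MCECs) that carried an empty vector or a CRISPR knockout (KO) of *Hdac3*. Of 8278 genes listed in the deposited comparison, 79 protein-coding genes were taken by name: cyclins (*Ccn*), cyclin-dependent kinases (CDKs; *Cdk* and *Cdkl*), CDK inhibitors (*Cdkn*), *Cdc25* phosphatases, *Pkmyt1*, *Cks* subunits, E2F factors with their *Tfdp* partners, the pocket proteins *Rb1*, *Rbl1* and *Rbl2*, *Trp53*, *Mdm2*, *Mdm4*, *Gadd45* and *Btg* genes. The names used no measured value, but the table they were sought in lists only genes that passed the authors' own test. The name rule also took 13 genes outside these core families that begin with the same letters, such as *Cdk2ap1* and *Trp53rk*, which are described at the end of the members.

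RNA of 8 MCEC samples was sequenced, 4 labelled empty vector (EV) and 4 labelled *Hdac3* KO. MCECs are a purchased line of endothelial cells from mouse heart. EV MCECs carried an empty lentiviral vector and *Hdac3* KO MCECs a lentiviral CRISPR/Cas9 vector (lentiCRISPR v2) with a guide RNA against *Hdac3*, which encodes a histone deacetylase, so both groups had been transduced with lentivirus. Both grew in medium with serum. How the line was immortalised, and whether the stable KO cells were 1 clone or a pool, is not given in the sources used here. The study's methods speak in general of technical replicates in vitro, of biological samples and of repeated experiments, and do not say which kind these libraries were, so the p-values measure the spread between these libraries, which may be technical.

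Cyclins bind and activate CDKs, and successive pairs drive a cell through G1, DNA synthesis and mitosis: D-type cyclins with Cdk4 and Cdk6, E- and A-type cyclins with Cdk2, and A- and B-type cyclins with Cdk1. These kinases inactivate the pocket proteins, which otherwise hold E2F factors and their DP partners silent at the genes for DNA replication. Inhibitors of the Cip/Kip and INK4 families restrain the kinases. The transcription factor p53, encoded by *Trp53* and held low by Mdm2 and Mdm4, switches on the Cip/Kip inhibitor gene *Cdkn1a* (p21) and other arrest genes.

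Libraries held 15775327 to 21262575 reads for EV and 19356714 to 22255684 for *Hdac3* KO, and the 79 genes took 0.556 to 0.560% of EV reads and 0.607 to 0.613% of KO reads. Counts are given as normalized counts, that is reads divided by the library's relative size after TMM scaling, and levels per length as the authors' FPKM, which is relative to all reads of a library without that scaling. *Hdac3* itself, the check of the labels, stood at 1943, 2077, 2064 and 2147 normalized counts in the EV libraries and at 1558, 1465, 1496 and 1531 in the KO libraries (log2 fold change −0.45 ± 0.04 SE, two-sided exact permutation p = 0.0286, the smallest that 4 against 4 libraries allow). The message was lower in every KO library and was not lost. The paper reports a western blot check of the deletion in *Hdac3* KO and EV MCECs, and message counts do not measure protein. The deposited table lists only genes that passed the authors' own test, so nearly all of it is called: 47.1% of listed genes were higher in *Hdac3* KO MCECs and 49.6% lower (edgeR quasi-likelihood test, Benjamini-Hochberg adjusted p under 0.01), and in 91.1% the libraries of the groups did not overlap. Of 14 endothelial markers 7 were listed, 6 called lower and 1, *Pecam1*, higher. They were led by *Cd34* at a mean of 94.3 FPKM in EV and 70.8 in KO and *Eng* at 21.5 and 17.7. At lower levels per length, *Tek* (log2 −1.41), *Kdr* (−1.20), *Egfl7* (−0.47) and *Flt1* (−0.26) fell. The summed FPKM of the 7 was 121 to 123 in EV and 91.3 to 94.4 in KO libraries. *Pecam1*, a defining marker, was near 0, with a mean of 0.52 normalized counts in EV and 3.99 in KO. Of 8 fibroblast and mural markers 5 were listed, and their sum was 731 to 753 FPKM in EV and 537 to 554 in KO. Of these *Col1a1* was higher, at a mean of 373 FPKM in EV and 404 in KO, and the other 4 were lower: *Dcn* (log2 −1.21, from 351 to 139 FPKM), *Pdgfra* (−1.42), *Acta2* (−1.99) and *Pdgfrb* (−2.29). Of 7 blood cell markers only *Cd68* was listed (5.36 to 5.89 and 11.1 to 12.5 FPKM), of 4 epithelial markers *Krt8* and *Krt18* (summed 1.497 to 2.06 and 3.56 to 4.81 FPKM), and of 7 cardiomyocyte markers 0. The part of these markers in the results was not tested, and in bulk RNA fewer cells of a type and less RNA per cell cannot be told apart.

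All 79 genes passed the cut-off, as did 96.7% of listed genes, and 50 of them (63.3%) were higher in *Hdac3* KO MCECs against 47.1% of all listed genes, and 29 (36.7%) lower against 49.6%. Their median log2 fold change was 0.24, beside 0.06 for all listed genes. With library totals in place of TMM scaling the median of the 79 genes was 0.13. That of all listed genes moved by −0.12, to −0.06. Of the 79 genes 38 were then called higher and 29 lower, against 2671 and 4120 of all listed genes. Changes were modest in size: 17 genes rose by more than 0.5 on the log2 scale, where 15.1% of listed genes did, and 9 fell by more than 0.5, where 23.4% did. Past 1 lay *Cdkn1a* and *Btg4* among the higher genes (4.43% of listed genes) and *Cdk15* among the lower (8.36%), of which *Btg4* and *Cdk15* had only a few reads per library. In 70 of 79 genes the EV and KO libraries did not overlap, beside 91.1% of all listed genes. Leaving out the 13 genes outside the core families left 43 higher and 23 lower, with a median of 0.26.

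**Figure D1:**
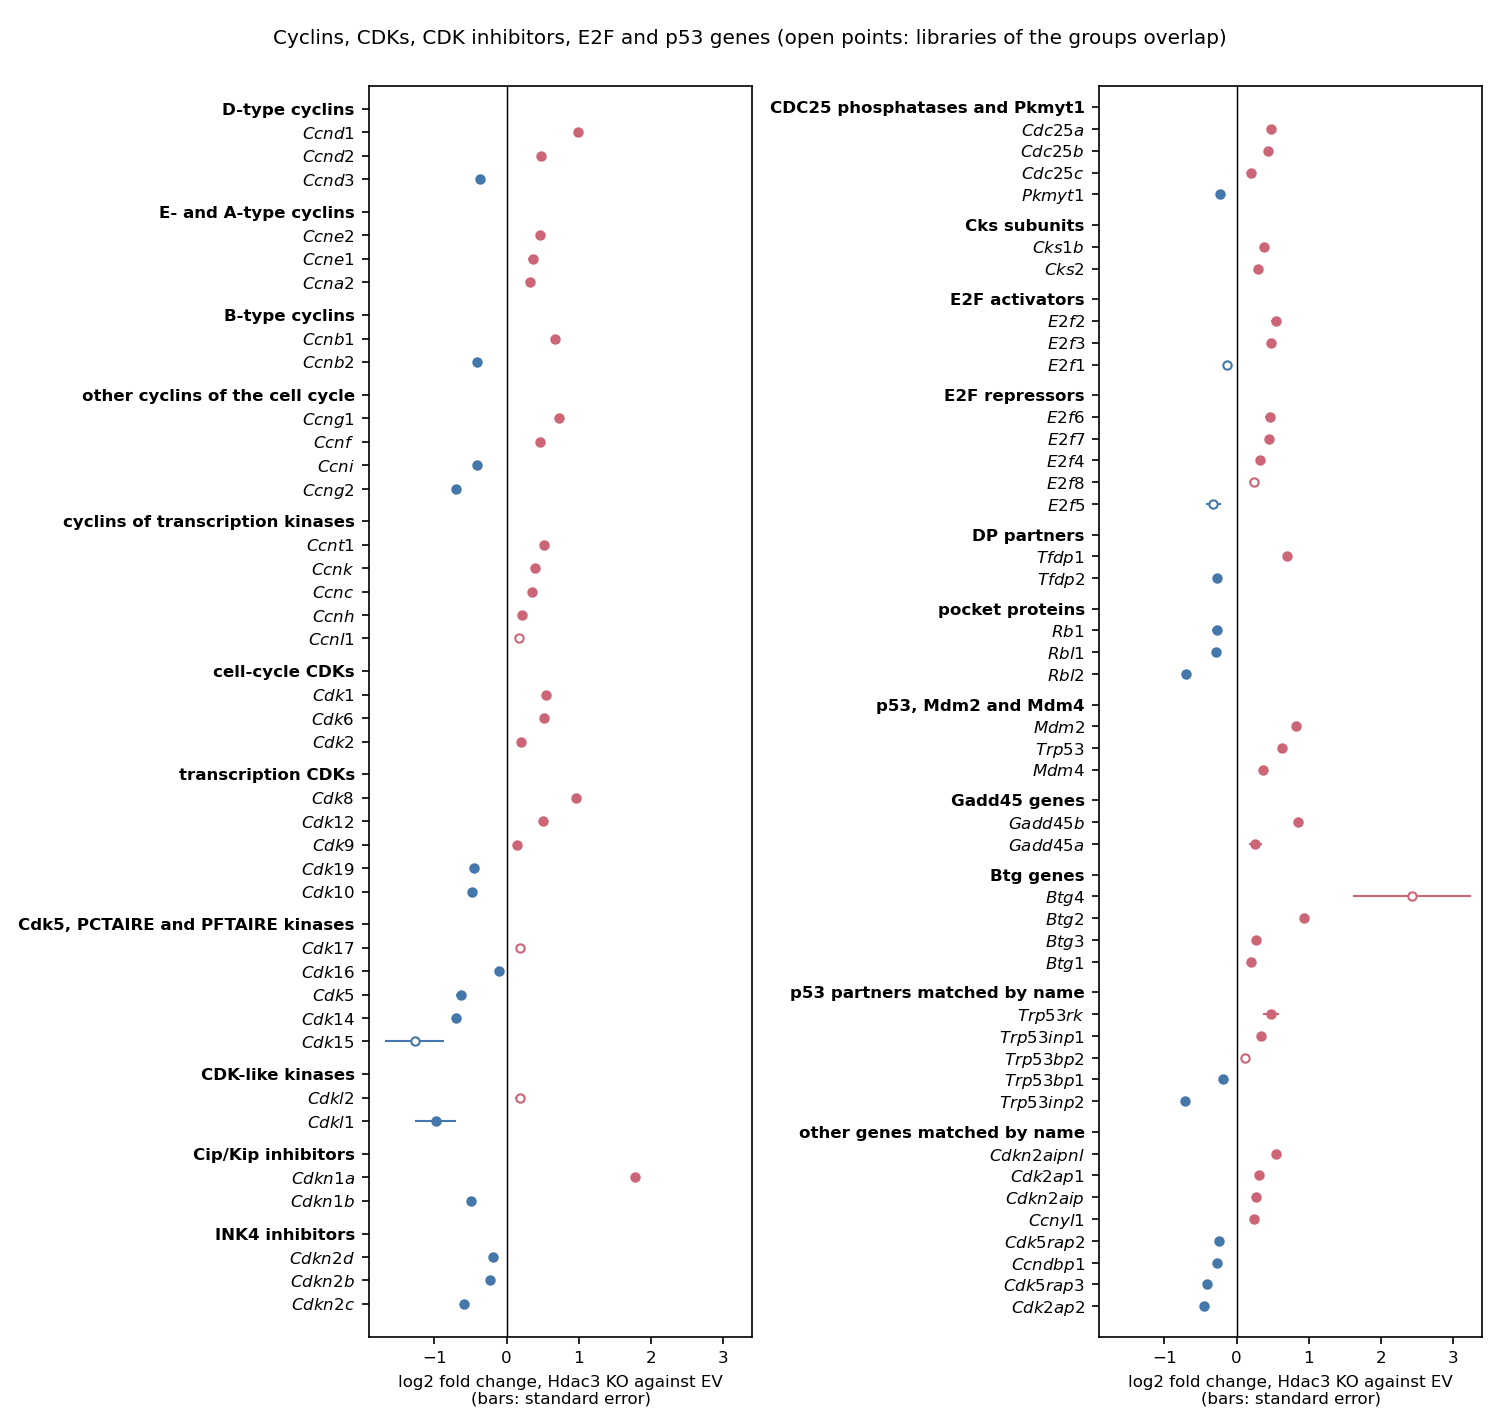
Log2 fold change (x axis, *Hdac3* KO against EV) of the 79 genes but 1 with its standard error, by role; red points were higher, blue points lower, and open points mark genes whose EV and KO libraries overlap. All 3 E- and A-type cyclins and all 3 cell-cycle CDKs lie right of 0, beside 47.1% of all listed genes called higher. All 3 INK4 inhibitors and all 3 pocket proteins lie left of it, beside 49.6% called lower. *Cdkn1a* stands alone at 1.79 among the genes with more than a few reads. The wide bars of *Btg4* and *Cdk15* belong to genes with at most 16 reads in any library.

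The CDK inhibitors split, with one gene strongly up and the other 4 down. *Cdkn1a* (p21, ENSMUSG00000023067, chr17:29090979-29100722), which inhibits Cdk2 and Cdk1 complexes, stood at 1260.3, 1296, 1255 and 1334 normalized counts in the EV libraries and at 4486, 4448, 4452 and 4383 in the *Hdac3* KO libraries. The groups lay far apart, with a spread of 36.7 and 43.1 (SD, n = 4) within them. Its log2 fold change was 1.79 ± 0.03 (SE; adjusted p = 1.9e-32, edgeR), above that of 98.4% of listed genes. Per length it rose from 35.8 ± 0.902 to 114 ± 1.31 FPKM (mean ± SD, n = 4).

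*Cdkn1b* (p27), the other Cip/Kip gene listed, went the opposite way: 3579, 3384, 3681 and 3473 normalized counts in EV and 2477, 2524, 2604 and 2408 in KO, a log2 fold change of −0.50 ± 0.03. Every KO library was below every EV library. The pair changed places, *Cdkn1a* making up 46.5% of their summed FPKM in EV and 80.9% in KO, while the sum went from 77.1 ± 1.17 to 141 ± 1.99 FPKM. Library totals in place of TMM left both directions as they were.

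All 3 INK4 genes listed, whose products bind Cdk4 and Cdk6, were called lower, beside 49.6% of all listed genes. *Cdkn2c* (p18), the highest of them per length in EV at 72.2 ± 1.02 FPKM, had 3274, 3366, 3358 and 3411 normalized counts in EV and 2293, 2223, 2185 and 2192 in KO. That is a log2 fold change of −0.59 ± 0.03 with no overlap. *Cdkn2b* (p15) had −0.23 ± 0.04 and *Cdkn2d* (p19) −0.19 ± 0.04, both without overlap. The INK4 sum fell from 161 ± 3.97 to 115 ± 1.37 FPKM. Over the 5 inhibitor genes together the level per length, without TMM scaling, was higher in every KO library, at 256 ± 3.21 FPKM against 238 ± 4.95 in EV. The share of *Cdkn1a* in it went from 15.1% to 44.6% and that of *Cdkn2c* from 30.3% to 17.3%. Shares and sums were described over libraries and not tested.

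**Figure D2:**
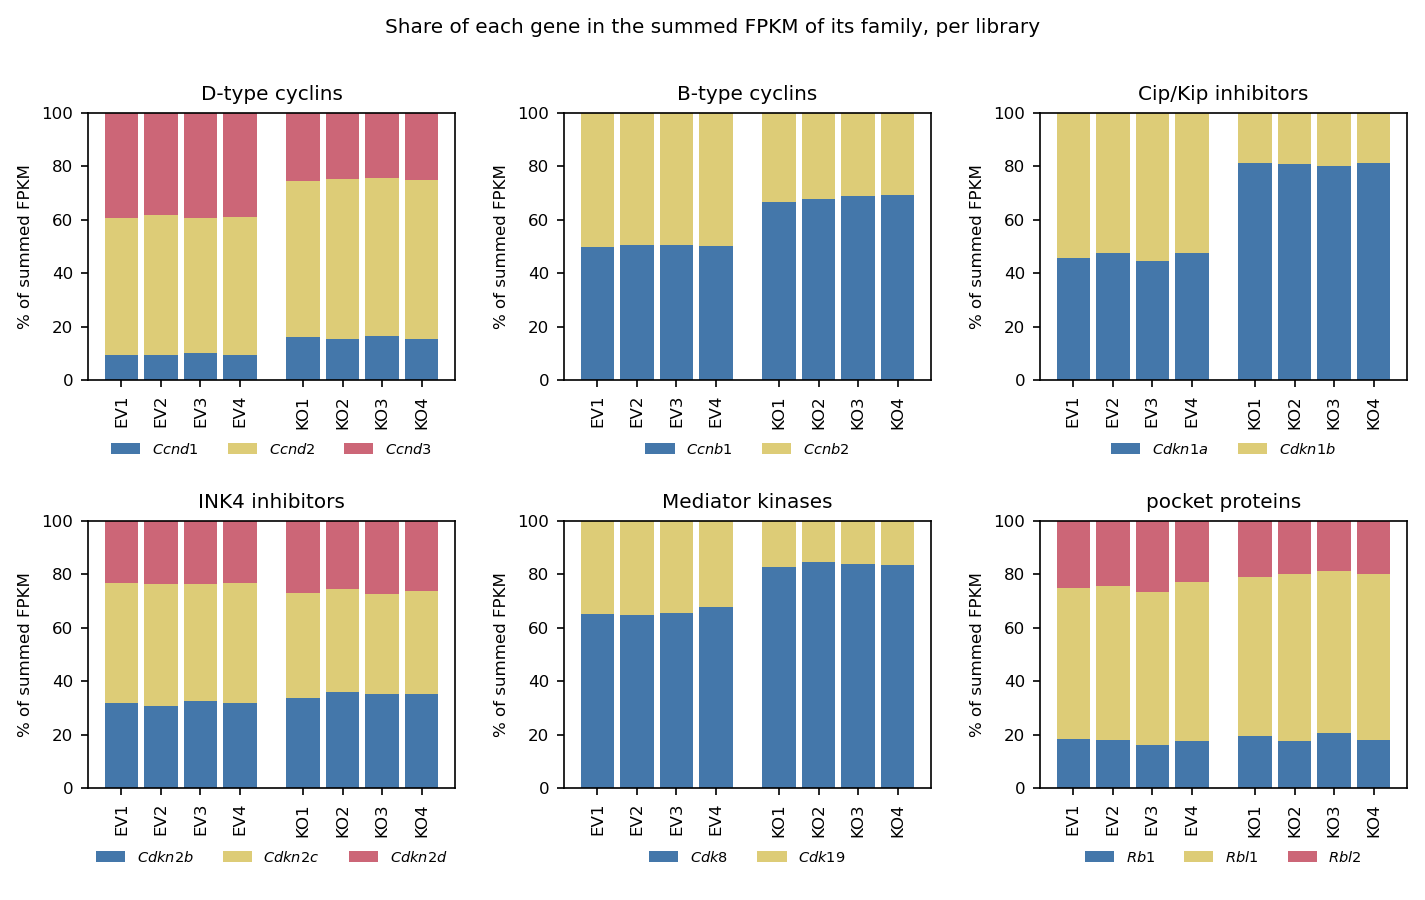
Share of each gene in the summed FPKM of its family (y axis, percent) in each of the 4 EV and 4 KO libraries. *Cdkn1a* takes 44.8 to 47.8% of the Cip/Kip sum in EV libraries and 80.3 to 81.3% in KO libraries, and *Ccnd3*, *Ccnb2*, *Cdk19* and *Rbl2* take smaller shares in every KO library than in any EV library.

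The *Cdkn1a* promoter is shown because the gene had the largest change among those with more than a few reads and because p53 is its textbook regulator. Promoter windows, from 250 bases before to 50 bases after an annotated transcript start, came from RefSeq on GRCm38.p6 and were found for 63 of the 79 genes. Capitals mark a p53 site, here a pair of adjoining 10-base p53 half-sites with at most 1 base off, a motif chosen after the letters of the *Cdkn1a* window had been seen. The *Cdkn1a* stretch is chr17:29090869-29090988 on the plus strand, positions −110 to 9 from the upstream annotated start (its base counted as 0), with the site at −51 to −32. The *Ccng1* stretch is chr11:40755452-40755491 on the minus strand, with the site at −195 to −176.
Cdkn1a: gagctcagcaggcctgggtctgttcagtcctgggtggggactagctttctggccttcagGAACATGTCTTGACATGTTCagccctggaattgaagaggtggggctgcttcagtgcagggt
Ccng1: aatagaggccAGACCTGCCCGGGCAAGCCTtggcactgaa
Such a site lay in the windows of *Cdkn1a* and *Ccng1* alone among the 63 genes, and in 0.0814% of 27025 genes with a window. Both genes were higher in *Hdac3* KO MCECs, as were 40 of the 63. A match describes letters in a window and not binding.

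The genes of p53 and of both its inhibitors were called higher, beside 47.1% of all listed genes. *Trp53* (chr11:69580359-69591873) had 3932, 3804, 3857 and 3869.6 normalized counts in EV and 5980.4, 5939.9, 5979 and 6050.1 in KO. The groups did not overlap, and the log2 fold change was 0.63 ± 0.03 (adjusted p = 1.6e-21, edgeR). *Mdm2* (chr10:117688888-117710758), the ubiquitin ligase that degrades p53 and is itself a p53 target, had 1572, 1531, 1488 and 1448 in EV and 2581, 2859, 2601 and 2643 in KO. It rose by 0.83 ± 0.04, without overlap. Its relative *Mdm4*, which blocks the activation domain of p53, rose by 0.37 ± 0.04, also without overlap.

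*Ccng1* (cyclin G1, a p53 target that recruits a phosphatase to Mdm2) had 2391, 2326, 2232 and 2324 normalized counts in EV and 3645, 3744, 3923 and 3996 in KO, a log2 fold change of 0.72 ± 0.03. Its paralog *Ccng2*, an unconventional cyclin tied to cell-cycle arrest, had 671, 727, 748 and 702 in EV and 470.3, 441, 471 and 372 in KO, a log2 fold change of −0.70 ± 0.06. Neither gene's groups overlapped, so the G-type cyclins moved apart. *Ccni*, the highest of the atypical cyclins at 96.8 ± 2.06 FPKM in EV, fell from 5225, 5146, 5004 and 5038 to 3768, 3757, 3949 and 3892 normalized counts (log2 −0.41 ± 0.03).

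Of the growth-arrest genes, the 2 *Gadd45* and 4 *Btg* genes listed were called higher, beside 47.1% of all listed genes. The calls of *Gadd45a*, *Btg1* and *Btg4* were lost under other settings. *Gadd45b*, a stress-induced gene, had 1005, 918, 925 and 952 normalized counts in EV and 1769, 1729.9, 1652 and 1723 in KO, with no overlap and a log2 fold change of 0.86 ± 0.04. *Gadd45a*, a p53 target of the same family, was far lower in level, with 139, 139, 140.0 and 153 in EV and 170.4, 167, 182 and 168 in KO. Its log2 fold change of 0.26 ± 0.09 had an adjusted p of 7.5e-03 (edgeR), close to the cut-off, and DESeq2 gave 0.0139; library totals in place of TMM gave 0.135. Leaving out EV replicate 1, 2 or 3 or KO replicate 1 or 3 ended its call (adjusted p = 0.0108 to 0.0236). Of its exon bases 19.1% lie opposite an exon of another gene, and whether reads were counted by strand is not given in the sources used here.

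*Btg2*, an antiproliferative p53 target, had 289.6, 267, 280.0 and 306 normalized counts in EV and 573, 558, 543 and 518 in KO. Its groups were apart by 0.94 ± 0.06 on the log2 scale. *Btg3*, the highest of the family per length at 29.5 ± 2.26 FPKM in EV, had 787, 734, 865 and 752 in EV and 892, 963, 975 and 939 in KO, and *Btg1* differed by 0.20 ± 0.04 but not past the cut-off with library totals in place of TMM. *Btg4*, known from oocytes, had 2, 0, 0 and 1 reads in the EV libraries and 2, 9, 2 and 7 in the KO libraries, and its groups overlapped. These reads are too few for the size of its fold change, counted above as past 1, to be relied on. With DESeq2 it did not pass the cut-off (adjusted p = 0.0178).

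Among the cyclins of the cell cycle the D type shifted between paralogs. *Ccnd1* (chr7:144929931-144939869), the mitogen-induced cyclin of G1, had 472, 506, 527 and 504 normalized counts in EV and 1021, 945, 1038 and 1011 in KO. It rose in every KO library, by 0.996 ± 0.05 on the log2 scale (adjusted p = 1.5e-19, edgeR). *Ccnd2*, the highest per length at 38.1 ± 1.16 FPKM in EV, had 3946, 4261, 4009 and 4119.7 in EV and 5655, 5560.2, 5623 and 5864 in KO, a rise of 0.47 ± 0.03. *Ccnd3* fell from 2031, 2089, 2110.4 and 2090.4 to 1674, 1544, 1577 and 1674, a log2 fold change of −0.36 ± 0.03. None of the 3 overlapped between groups. The share of *Ccnd3* in the summed FPKM of the D type went from 38.8% to 24.9%, that of *Ccnd1* from 9.66% to 15.9%, and the sum from 73.9 ± 1.54 to 82.5 ± 2.03 FPKM. For *Ccnd1*, 23.4% of exon bases lie opposite exons of another gene.

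*Cdk6*, a kinase partner of the D-type cyclins, had 373, 491, 434 and 461 normalized counts in EV and 678, 647, 585 and 626 in KO, with a log2 fold change of 0.52 ± 0.06 and no overlap. *Cdk4*, which the name rule would take, was not among the genes found in the deposited comparison, so it has no value here. All 3 E- and A-type cyclins were called higher, beside 47.1% of all listed genes. *Ccne1* rose by 0.36 ± 0.06, *Ccne2* by 0.46 ± 0.05 and *Ccna2*, the highest of them at 60.7 ± 2.07 FPKM in EV, by 0.33 ± 0.03. *Ccna2* had 3489, 3461, 3317 and 3260.2 normalized counts in EV and 4161, 4129, 4315 and 4382 in KO, and none of the 3 overlapped between groups. *Cdk2*, the kinase of the E type, changed least among the cell-cycle CDKs, by 0.20 ± 0.03, and with library totals in place of TMM its adjusted p was 0.0295, above the cut-off. The opposite strand carries exons over 17.4% of the *Ccne2* and 12.5% of the *Ccna2* exon bases.

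The mitotic pair *Ccnb1* and *Ccnb2* parted. *Ccnb1* (chr13:100778650-100786570), the main partner of Cdk1 at entry into mitosis, had 3974, 4008, 3971 and 3948 normalized counts in EV and 6129, 6120.1, 6494 and 6485 in KO, a log2 fold change of 0.67 ± 0.03 (adjusted p = 1.9e-21, edgeR). *Ccnb2* (chr9:70407689-70421554) fell from 2458, 2433, 2401 and 2423 to 1884, 1809.5, 1826 and 1792, by 0.41 ± 0.03. Both groups of libraries were tight and apart. At nearly equal levels per length in EV MCECs (84.98 and 83.85 FPKM), the pair stood at 124 ± 3.97 and 58.2 ± 1.35 FPKM in *Hdac3* KO MCECs, and *Ccnb1* went from 50.3% to 68.1% of their sum. Over the 8 D-, E-, A- and B-type cyclins the sum went from 324 ± 3.36 to 360.1 ± 7.07 FPKM.

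*Cdk1* (chr10:69336635-69352938), the mitotic kinase, had 2993, 2939.7, 3031 and 2858 normalized counts in EV and 4313, 4195, 4492 and 4337 in KO. No EV library reached a KO library, and the log2 fold change was 0.55 ± 0.03. The phosphatases that activate it rose as well, *Cdc25a* by 0.48 ± 0.04, *Cdc25b* by 0.44 ± 0.04 and *Cdc25c* by 0.20 ± 0.05, while *Pkmyt1*, the kinase that opposes them, fell by 0.23 ± 0.05. With library totals in place of TMM *Cdc25c* did not pass the cut-off (edgeR adjusted p = 0.0797). *Cdc25b*, the highest of the 3 at 21.7 ± 0.784 FPKM in EV, had 1262, 1237, 1313 and 1216 normalized counts in EV and 1618, 1727, 1735 and 1723 in KO. The *Cks* genes encode small subunits of Cdk1 and Cdk2 complexes. *Cks1b* had 2077, 1959, 2106 and 2206 normalized counts in EV and 2752, 2687, 2661 and 2777 in KO (log2 0.38 ± 0.03) and *Cks2* rose by 0.29 ± 0.04. *Ccnf*, a cyclin that serves as the substrate receptor of a ubiquitin ligase, rose by 0.47 ± 0.04. In none of these 8 genes did the groups overlap.

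**Figure D3:**
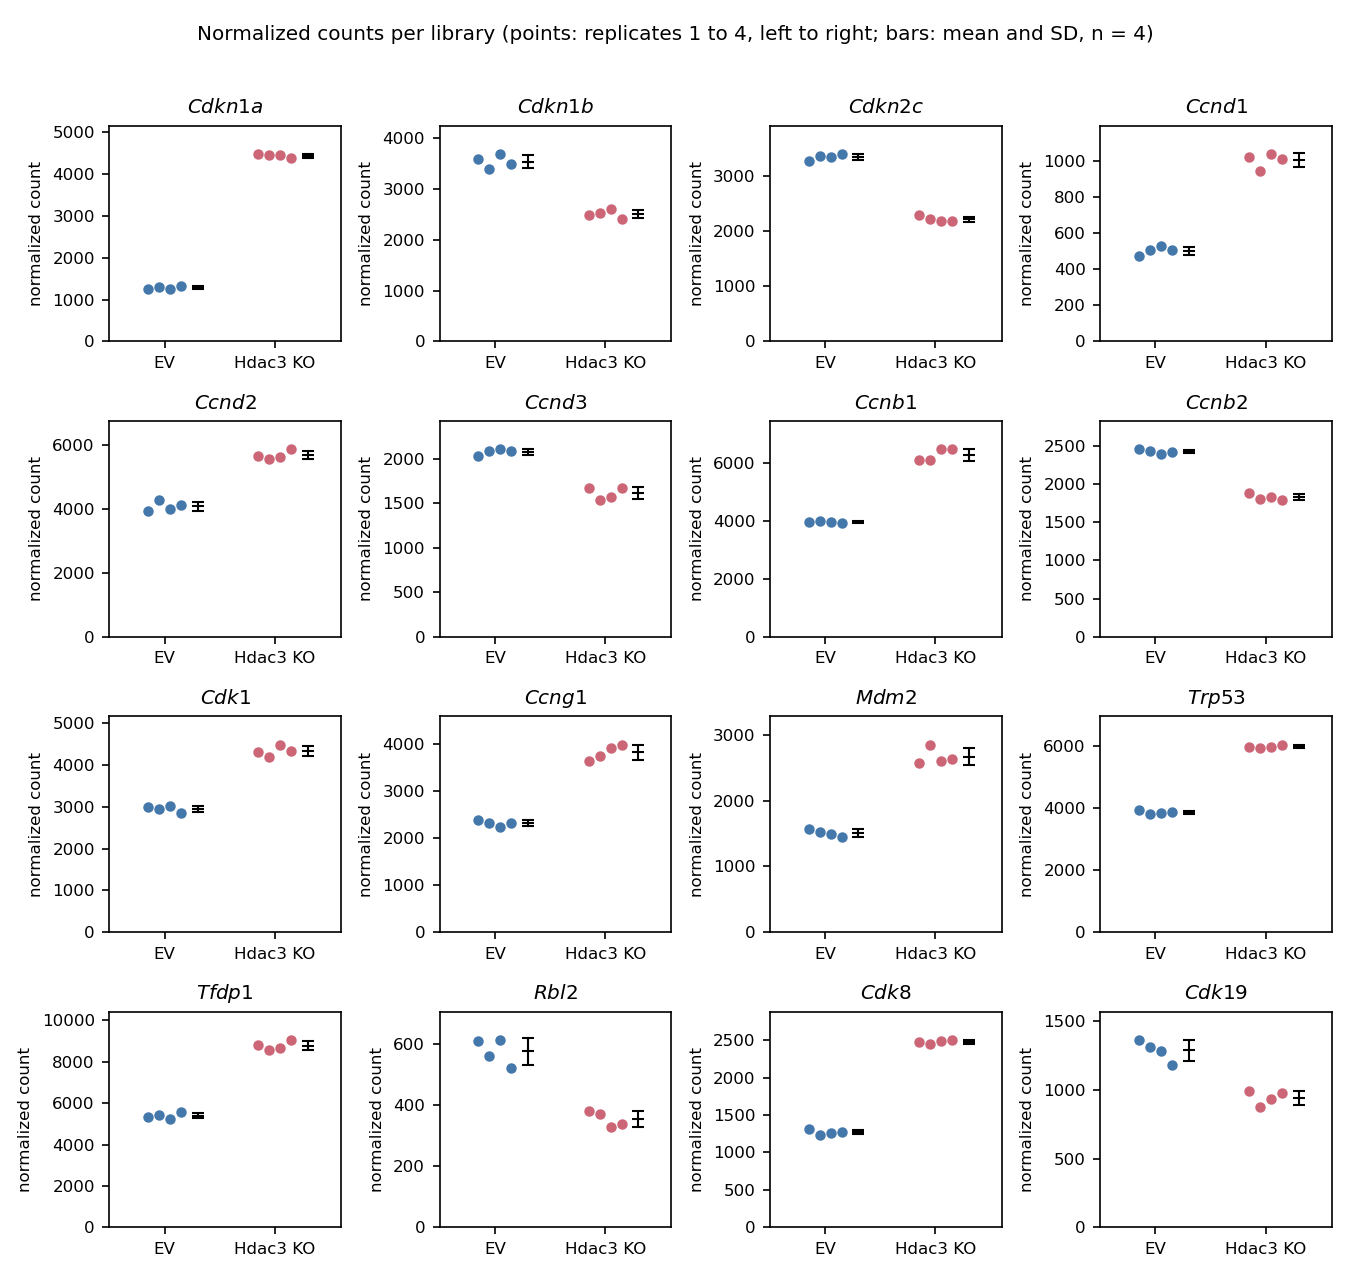
Normalized counts (y axis, from 0) of 16 genes in each EV (blue) and *Hdac3* KO (red) library, with the mean and SD of 4 libraries beside the points. Paralogs that moved apart stand side by side, such as *Ccnb1* (3975 to 6307 on average) and *Ccnb2* (2429 to 1828), and *Cdk8* and *Cdk19*.

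Promoters of mitotic genes are shown because genes of this kind often carry CCAAT boxes and a CHR element near the start, and because *Ccnb1* and *Ccnb2* moved apart. Each stretch runs from −110 to 9 around an annotated start on the minus strand (GRCm38.p6): chr13:100786477-100786596 for *Ccnb1*, chr9:70421545-70421664 for *Ccnb2*, chr10:69352903-69353022 for *Cdk1*, chr17:24251400-24251519 for *Ccnf* and chr3:89418282-89418401 for *Cks1b*. Capitals mark CCAAT boxes (CCAAT) and CHR elements (TTTGAA) on either strand.
Ccnb1: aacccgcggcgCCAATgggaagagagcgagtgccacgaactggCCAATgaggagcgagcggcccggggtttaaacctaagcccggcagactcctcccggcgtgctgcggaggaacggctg
Ccnb2: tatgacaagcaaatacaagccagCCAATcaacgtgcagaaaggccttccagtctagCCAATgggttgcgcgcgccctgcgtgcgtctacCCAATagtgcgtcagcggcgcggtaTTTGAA
Cdk1: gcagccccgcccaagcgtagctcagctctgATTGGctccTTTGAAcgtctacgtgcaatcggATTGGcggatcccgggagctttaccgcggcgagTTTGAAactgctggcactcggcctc
Ccnf: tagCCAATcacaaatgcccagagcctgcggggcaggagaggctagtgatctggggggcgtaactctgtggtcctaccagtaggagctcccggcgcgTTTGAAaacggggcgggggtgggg
Cks1b: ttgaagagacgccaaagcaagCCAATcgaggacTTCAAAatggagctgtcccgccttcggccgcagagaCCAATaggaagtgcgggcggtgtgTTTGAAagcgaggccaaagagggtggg
*Ccnb1*, which rose, has CCAAT boxes at −99 and −67 and no TTTGAA in this stretch. Other forms of a CHR element were not searched, so a stretch without TTTGAA may still hold a CHR element. *Ccnb2*, which fell, has TTTGAA at 4 to 9, and *Cdk1*, which rose, has it at −71 and −15. TTTGAA was in the windows of 12 of 63 genes (19.05%), 6 of 40 that were higher and 6 of 23 that were lower, and in 20.2% of all genes with a window. CCAAT was in those of 38 (60.3%), 28 of the higher and 10 of the lower, and in 41.1% of all genes.

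Of the E2F genes 6 were higher and 2 lower, in a table where 47.1% of genes were higher and 49.6% lower. Among the activators *E2f2* had 237, 214, 216 and 231 normalized counts in EV and 316, 312, 346 and 340.3 in KO (log2 0.55 ± 0.07), *E2f3* rose by 0.47 ± 0.05, and *E2f1*, the highest activator per length at 25.4 ± 0.962 FPKM in EV, had 1309, 1247, 1332 and 1363 in EV and 1267, 1152, 1187 and 1179 in KO. The groups of *E2f1* overlapped. Its log2 fold change was −0.14 ± 0.04 (adjusted p = 1.6e-03, edgeR), and the call was lost without EV replicate 4 or without KO replicate 2 (adjusted p = 0.0106 in each).

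Among the repressors *E2f4*, the E2F with the highest level per length at 41.6 ± 1.30 FPKM in EV, had 1531, 1518, 1550.4 and 1632 normalized counts in EV and 1942, 2030.0, 1889.7 and 1917 in KO, a rise of 0.32 ± 0.03. *E2f6* rose by 0.46 ± 0.07 and *E2f7* by 0.45 ± 0.05, both without overlap. *E2f8* (log2 0.24 ± 0.06) and *E2f5* (−0.32 ± 0.10) passed the cut-off with overlapping libraries, and *E2f5* did not pass it with DESeq2 (adjusted p = 0.0107), nor *E2f8* with library totals in place of TMM (0.0615). The summed FPKM of the 8 E2F genes went from 101 ± 2.06 to 109 ± 1.22, with *E2f4* at 41.0% of it in EV and 43.9% in KO, and *E2f1* at 25.01% in EV and 19.5% in KO.

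Most E2F factors need a DP partner to bind DNA. The DP partner *Tfdp1* (chr8:13339674-13377702) had the highest level per length of all 79 genes, at 169 ± 3.68 FPKM in EV. It had 5345, 5428, 5249.8 and 5564 normalized counts in EV and 8788, 8580.1, 8672 and 9061 in KO, and rose by 0.70 ± 0.03 (adjusted p = 1.8e-22, edgeR). *Tfdp2* fell by 0.27 ± 0.03. The KO libraries lay above all EV libraries for the one and below them for the other, and *Tfdp1* went from 89.4% to 94.3% of their summed FPKM.

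The genes of the 3 pocket proteins, which repress E2F target genes, were all called lower, beside 49.6% of all listed genes. *Rbl2* (p130, chr8:91070057-91123844), the pocket protein of resting cells, had 609, 562, 613 and 519.7 normalized counts in EV and 379.8, 371, 327 and 339 in KO, a log2 fold change of −0.70 ± 0.06. *Rbl1* (p107), the highest of the 3 at 14.4 ± 0.283 FPKM in EV, had 1346, 1300.5, 1294 and 1329 in EV and 1070.0, 1149.9, 1040.4 and 1052 in KO, and fell by 0.29 ± 0.04. *Rb1* fell by 0.27 ± 0.07. No gene of the 3 overlapped between groups, and their summed FPKM went from 25.1 ± 0.804 to 17.8 ± 0.724. Opposite-strand exons cover 21.0% of the *Rbl2* and 14.9% of the *Rb1* exon bases.

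E2F sites are shown for genes that moved in opposite directions. The stretches are chr9:109875496-109875535 on the plus strand for *Cdc25a*, chr10:110745225-110745264 on the plus strand for *E2f7* and chr2:157204529-157204568 on the minus strand for *Rbl1* (GRCm38.p6). Capitals mark an E2F site, searched as TTTCCCGC, TTTGGCGC, TTTCGCGC or TTTGCCGC on both strands.
Cdc25a: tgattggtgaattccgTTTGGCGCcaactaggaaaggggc
E2f7: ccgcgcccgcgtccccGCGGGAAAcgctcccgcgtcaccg
Rbl1: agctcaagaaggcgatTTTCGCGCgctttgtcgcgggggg
One of these words was in the windows of 8 of 63 genes (12.7%) and of 2.61% of all genes with a window. The 8 were *Cdk1*, *Cdk2*, *Cdc25a*, *E2f2*, *E2f3*, *E2f7* and *Tfdp1*, all higher, and *Rbl1*, lower. That is 7 of the 40 higher and 1 of the 23 lower genes with a window.

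Cyclins and CDKs that act on transcription changed too. The Mediator kinases *Cdk8* and *Cdk19*, paralogs that take the same place in the Mediator complex, moved in opposite directions. *Cdk8* (chr5:146231230-146302874) had 1314, 1237, 1262 and 1275 normalized counts in EV and 2473, 2447, 2487 and 2503 in KO, a log2 fold change of 0.96 ± 0.03 (adjusted p = 6.0e-24, edgeR), above 95.1% of listed genes. *Cdk19* had 1365, 1314, 1286 and 1184 in EV and 992, 878, 932 and 976 in KO, a log2 fold change of −0.44 ± 0.04. The libraries of both were apart, and the share of *Cdk8* in the pair's FPKM went from 65.9% to 83.7%. Their cyclin, *Ccnc*, rose by 0.36 ± 0.06.

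*Ccnt1* and *Cdk9* form the elongation factor P-TEFb. *Ccnt1* had 1478, 1460.4, 1495 and 1417 normalized counts in EV and 2106, 2261, 1973 and 2045 in KO (log2 0.52 ± 0.04), while *Cdk9* rose by 0.14 ± 0.03 and lost its call with library totals in place of TMM. *Cdk12*, a kinase of elongating RNA polymerase, had 1297, 1412, 1341 and 1312 in EV and 1869.7, 1954, 1815 and 1976 in KO (log2 0.51 ± 0.04), and neither *Ccnt1* nor *Cdk12* overlapped between groups. The cyclin of Cdk12, *Ccnk*, was the highest cyclin of this kind per length at 20.6 ± 0.630 FPKM in EV, and had 1017, 1013, 977 and 1058 normalized counts in EV and 1307, 1378, 1329 and 1337 in KO (log2 0.40 ± 0.04). All 5 cyclins of this kind passed the cut-off as higher, as did 47.1% of all listed genes, with *Ccnh* and *Ccnl1* at 0.21 and 0.18, whereas *Cdk10* fell by 0.47 ± 0.06. The groups of *Ccnl1* overlapped, and its call was lost without EV replicate 2 or 4 or KO replicate 2 (edgeR adjusted p = 0.0126 to 0.0341). Neither *Ccnh* (edgeR adjusted p = 0.0683) nor *Ccnl1* (0.322) passed it when library totals replaced TMM.

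Among the CDKs outside the cycle, that is *Cdk5*, the PCTAIRE and PFTAIRE kinases and the CDK-like kinases, 6 of 8 were called lower, beside 49.6% of all listed genes. Of the 6, *Cdk15* and *Cdkl1* had few reads and calls that other settings ended. *Cdk5*, which is activated by proteins that are not cyclins and best known from neurons, had 561, 609, 553 and 561 normalized counts in EV and 415, 325, 379 and 359 in KO (log2 −0.63 ± 0.06). *Cdk14*, a partner of cyclin Y in Wnt signalling, had 761, 831, 769 and 772 in EV and 473, 509.6, 433 and 506 in KO (log2 −0.70 ± 0.05). In both genes every KO library was below every EV library. *Cdk16*, the highest of this group at 45.2 ± 0.585 FPKM in EV, had 2807, 2798, 2725 and 2792 in EV and 2590.4, 2569.7, 2553 and 2654 in KO and differed by −0.10 ± 0.03, without overlap. *Cdkl2* had 474, 402, 411 and 376 in EV and 471, 465, 459 and 488 in KO with overlap (log2 0.19 ± 0.06), and *Cdk17* was at 0.19, also with overlap, and neither passed the cut-off with library totals in place of TMM.

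At the low end of the counts, *Cdkl1* had 21.4, 19.99, 18.8 and 26.6 normalized counts in EV and 9.47, 9.15, 16.0 and 9.38 in KO, with a log2 fold change of −0.98 ± 0.28, and its call was lost without EV replicate 4 (adjusted p = 0.0123). *Cdk15* had 5, 14, 10 and 16 reads in EV and 3, 8, 4 and 5 in KO libraries, which overlap. Its log2 fold change of −1.27 ± 0.41 did not pass the cut-off with DESeq2 (adjusted p = 0.0149).

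The 13 genes outside the core families, which include the cyclin Y-like gene *Ccnyl1*, held 7 that were higher and 6 that were lower, near the 47.1% and 49.6% of all listed genes, with log2 fold changes from −0.71 to 0.55. *Trp53inp2*, which acts in autophagy, had 1505, 1614, 1636 and 1607 normalized counts in EV and 968, 1006, 955 and 964 in KO, with no overlap. *Cdk2ap2*, a subunit of the NuRD deacetylase complex and the highest of the 13 per length in EV at 69.6 ± 0.944 FPKM, fell from 1444, 1422, 1401 and 1433 to 1077, 1024, 999 and 1092 normalized counts (log2 −0.44 ± 0.04). Its paralog *Cdk2ap1* rose by 0.31 ± 0.03 and was the highest of the 13 in KO. *Cdkn2aipnl* had 1170.1, 1233, 1225 and 1268 in EV and 1828, 1844, 1791 and 1720.4 in KO, and *Trp53rk*, a subunit of a tRNA-modifying complex, had a log2 fold change of 0.48 ± 0.11. *Trp53bp1*, a DNA repair factor, fell by 0.19 ± 0.04. Of the 13, *Trp53bp2*, which encodes the p53 partner ASPP2, alone had overlapping groups, with 2013, 2178, 2096 and 2018 in EV and 2291, 2319, 2135 and 2252 in KO. With library totals in place of TMM neither *Trp53bp2* (edgeR adjusted p = 0.971) nor *Cdkn2aip* (0.0199) passed the cut-off.

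Genes around this machinery were read from lists of textbook membership, with the 79 genes taken out, and are described by counts beside the shares of all listed genes given above. Of 47 G2/M genes 40 were listed and all 40 were higher, with a median log2 fold change of 0.27. *Ccnb1* and *Cdk1*, which rose, and *Ccnb2*, which fell, are among the 79 genes and so outside this count. *Top2a*, the mitotic topoisomerase, rose from 11043 to 19974 normalized counts (log2 0.86) and the kinase gene *Aurka* from 1948 to 3442 (log2 0.82). The smallest changes were those of *Cdc20* (log2 0.13) and *Cdca3* (0.13). Of 47 G1/S E2F target genes 40 were listed, 32 higher, 3 lower and 5 not called, with a median of 0.26. *Mybl2*, which encodes B-Myb, had a log2 fold change of 1.06 and *Cdc6*, an origin licensing factor, of 0.81, while the helicase subunit gene *Mcm6* (−0.38) and *Gins1* (−0.21) were lowest. All 7 listed genes of 9 of the DREAM, MuvB and MYB complexes, which hold cell-cycle genes on or off, were higher (median 0.30). They ran from *Dyrk1a* at 0.14 and *Foxm1* at 0.16 to *Mybl1* at 0.38 and *Mybl2*. Pocket proteins, E2F factors and DP partners also belong to such complexes but are among the 79 genes, so they are outside this count. Among them *Rbl1*, *Rbl2*, *E2f5* and *Tfdp2* were lower, and *E2f4* and *Tfdp1* higher. With library totals in place of TMM 31 of the 40 G2/M genes, 22 of the 40 G1/S genes and 5 of the 7 DREAM genes were called higher. The medians were then 0.16, 0.14 and 0.19. The paper reports slower growth of *Hdac3* KO than of EV MCECs, and RNA levels do not measure growth.

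Of 56 p53 target genes 36 were listed besides the members, 27 higher (18 with library totals in place of TMM), 8 lower and 1 not called. Their median log2 fold change was 0.32 (0.20 with library totals). *Plk2*, a kinase gene induced by p53, rose from 1395 to 4213 normalized counts (log2 1.59) and *Sesn2*, a stress sensor, from 483 to 1158 (log2 1.26). Lowest were *Steap3*, a metalloreductase (log2 −1.44), and *Tap1*, a peptide transporter of antigen presentation (−0.98). The list of DNA damage checkpoint kinases and partners had 12 of 24 listed, 10 higher and 2 lower, with small changes (median 0.17): *Clspn* 0.39 and *Atm* 0.36 at the top, *Chek2* −0.21 and *Ppm1d* −0.17 at the bottom. With library totals in place of TMM 3 of these 12 were called higher, and their median was 0.05. Senescence-associated genes had 19 of 26 listed, 12 higher and 7 lower (median 0.35, and 0.23 with library totals). The list was not split by the direction its genes take in senescence, so these counts and medians give no direction for senescence. *Mmp13*, which encodes a collagenase, stood at log2 1.502, against *Igfbp3* at −2.56 and *Glb1*, the gene of lysosomal β-galactosidase, at −0.95.

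Of 37 genes of mitogen and growth input into G1 27 were listed, 9 higher, 16 lower and 2 not called, with a median log2 fold change of −0.27. The list joins genes that drive growth with genes that oppose it, and the repressors *Mnt*, *Mxd1*, *Mxd4* and *Mxi1*, which compete with Myc, and the *Foxo* genes, named here after their values were seen, were among the 16 that fell. The immediate-early gene *Egr1* fell from 1211 to 382 normalized counts (log2 −1.66) and *Fos* from 134 to 59.3 (log2 −1.18). Its relative *Fosl1* rose from 117 to 554 (log2 2.24) and *Mycl* from 33.1 to 117 (log2 1.84). Of 38 genes of ubiquitin ligases that degrade cyclins and inhibitors 27 were listed, 19 higher, 5 lower and 3 not called (median 0.17), with *Skp2*, the receptor that marks p27 for degradation, at 0.66 and *Ube2s* at 0.46, and *Fbxo4* at −0.49 and *Anapc13* at −0.35. Of 28 partners of the transcription kinases 18 were listed, 14 higher, 3 lower and 1 not called (median 0.22), from *Gtf2h1*, a subunit of TFIIH, at 0.94 and the Mediator gene *Med13* at 0.46 to the elongation factor genes *Ell2* at −0.37 and *Mllt3* at −0.53. With library totals in place of TMM, 9 of the ubiquitin ligase genes (median 0.05) and 7 of the transcription partners (median 0.10) were called higher.

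**Figure D4:**
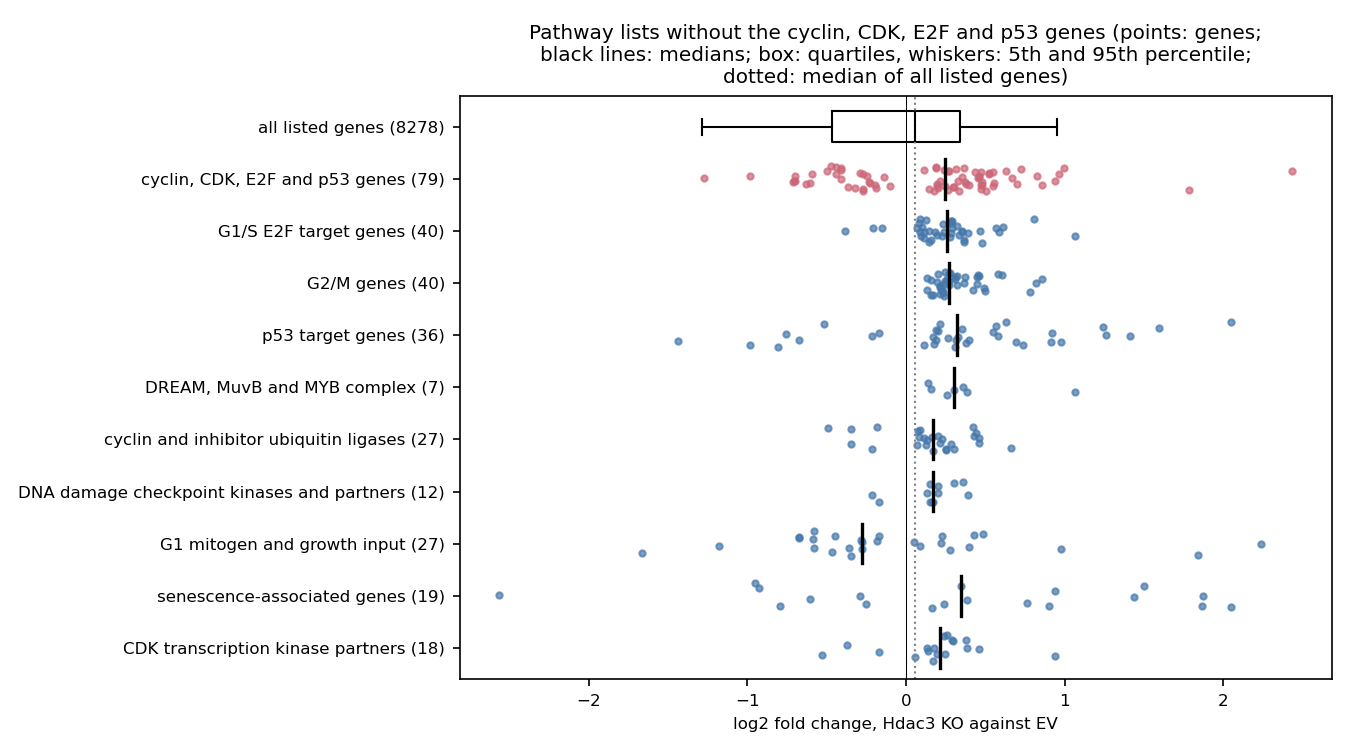
Log2 fold change (x axis, *Hdac3* KO against EV) of each listed gene of 9 pathway lists (blue points) and of the 79 genes (red points), with each list's median as a black line; the box and whiskers give the quartiles and the 5th and 95th percentiles of all 8278 listed genes. All 40 G2/M genes lie right of 0, and the list of G1 mitogen and growth input has its median left of 0, at −0.27.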

How the data were processed

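RNA of 4 empty vector and 4 *Hdac3* KO MCEC libraries was sequenced by the authors on an Illumina instrument and aligned to mm10 with tophat2 and bowtie2. The submitters' processing notes name CASAVA and DESeq 1.6.3. The methods of the study name lumi for the count matrix, and cufflinks and DESeq2 for differential expression. Which program assigned reads to genes for this table is not given in the sources used here. The deposited table holds, for 8278 genes, raw read counts per library, the authors' FPKM per library, gene length, and the authors' own comparison: group means as a normalized signal, a log2 fold change and p-values with adjusted p-values. Those comparison columns were used only to see that every listed gene had an adjusted p under 0.05 and that 16243 genes had been tested.

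Library totals were recovered from the count, length and FPKM of each gene. Counts of all listed genes were fitted in edgeR 4.0.16 (R 4.3.3, limma 3.58.1) with the recovered totals times TMM factors, which were 1.04 to 1.05 for EV and 0.957 to 0.962 for KO libraries, and with group as the only term. The quasi-likelihood test was two-sided, p-values were adjusted over all 8278 genes by Benjamini-Hochberg, and the cut-off was an adjusted p of 0.01. The fit was tested on simulated counts first. DESeq2 1.42.0, other scalings, filters and cut-offs, a replicate block and leaving out each library were the alternatives. Figures were drawn in Python 3.11.15 with matplotlib 3.10.9.

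The 79 genes, the pathway lists and the marker lists were chosen with earlier results of these data known, so lists are described by counts and medians, with no test. The genes named were every listed member of the core families, with values per library for those past 0.5 on the log2 scale and for the highest member of a family. From each list the 2 highest and 2 lowest genes were named, out of those that reached 100 normalized counts on average in either group, and 1 member and 1 list gene that meet these rules are not reported here. A common coefficient of variation of 2.82% between libraries and 15775327 to 22255684 reads per library set the precision, and the smallest log2 fold change called among all listed genes was 0.07. Overlap of exons on opposite strands was read from the gene annotation supplied for the build. Besides the genes given with it above, it covered 20.4% of the exon bases of *Cdkl1*, 17.3% of *Btg3* and 17.0% of *Cdkn2aip*. For *Trp53bp1* it was 15.0% and for *Cdc25c* 12.7%.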

Additional observations from a re-analysis of the deposited data

Results flagged for a closer look

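With 4 libraries per group, 10 of 158 groups of normalized counts (79 genes, each in both groups) had 1 library far from the other 3, where chance gives about 1 in 20 groups, here 7.9. The measure is the gap between that library and its neighbour as a share of the group's whole range (Dixon's test). EV replicate 2 stood apart in 5 of the 10.

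In EV replicate 2, *Cdk14* was high at 830.7 normalized counts, where the remaining EV libraries had 760.7 to 771.6 (share of range 0.844), *Cdk5* was high at 608.6 against 552.7 to 561.4 (0.844), and *Tfdp2* was high at 2886 against 2737 to 2753 (0.891). *Trp53bp1* was high there as well, at 1330.0 against 1249 to 1259 (0.876), and *Cdc25c* was low at 637.5 against 684.8 to 693.7 (0.841). In EV replicate 1 *E2f6* was high at 305 against 282 to 283.2 (0.950), and in EV replicate 4 *Gadd45a* was high at 153.4 against 138.8 to 140.0 (0.920).

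Among the KO libraries, *Cdc25b* was low in replicate 1 at 1618 against 1723 to 1735 (0.897), as was *Tfdp2* in the same library at 2254 against 2320.0 to 2332 (0.848). *Cdkl1* was high in KO replicate 3 at 16.0 against 9.15 to 9.47 (0.953), a gene of few reads. *Cdk14*, *Cdk5*, *Tfdp2*, *Trp53bp1*, *Cdc25b*, *Cdc25c*, *E2f6* and *Cdkl1* had non-overlapping groups with these libraries included, and so did *Gadd45a*.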

How the results depend on the processing

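Of the 79 genes, 74 stayed past the cut-off in the same direction with DESeq2, 79 with DESeq2 size factors, 79 among protein-coding genes only, 77 of the 77 tested with at least 10 counts in 4 libraries, 75 with adjustment over 16243 genes, and 67 with library totals in place of TMM. The totals shift the median of all listed genes by −0.12, and under them 38 members were higher and 29 lower. The call of *Trp53bp2* reversed sign under them, to −0.00133 on the log2 scale, without passing the cut-off, and 11 others lost their call in the same direction: *Ccnh*, *Ccnl1*, *Cdk2*, *Cdk9*, *Cdk17*, *Cdkl2*, *Cdc25c*, *E2f8*, *Gadd45a*, *Btg1* and *Cdkn2aip*. Under totals the number called higher was 9 among ubiquitin ligase genes, 3 among checkpoint genes and 7 among partners of transcription kinases.

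Leaving out each library in turn gave 45 to 48 members higher and 26 to 29 lower, and 3634 to 3806 and 3955 to 4024 of all listed genes. Checkpoint genes called lower numbered 1 to 2, with 1 without EV replicate 4 and without KO replicate 4. Calls were lost (edgeR adjusted p in brackets) for *E2f1* without EV replicate 4 or KO replicate 2 (0.0106 in each), *Cdkl1* (0.0123) and *Trp53bp2* (0.0104) without EV replicate 4, *Ccnl1* without EV replicate 2 or 4 or KO replicate 2 (0.0126 to 0.0341), *E2f5* without EV replicate 2 or KO replicate 2 or 4 (0.0187 to 0.0363), *Cdkl2* without EV replicate 2, 3 or 4 or KO replicate 4 (0.0141 to 0.0459), *Gadd45a* without EV replicate 1, 2 or 3 or KO replicate 1 or 3 (0.0108 to 0.0236), *Cdk15* without EV replicate 2 or 4 or KO replicate 1, 3 or 4 (0.0104 to 0.0208), *Cdk17* without EV replicate 1, 2 or 4 or KO replicate 1 or 3 (0.0138 to 0.0431), and *Btg4* without EV replicate 2, 3 or 4 or KO replicate 2 or 4 (0.0139 to 0.0322).

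Libraries that share a replicate number did not deviate together (mean correlation −0.02, from −0.11 to 0.12, against 0.007 between other pairs, over 7187 genes), so the numbers were not taken as pairs. With a replicate block 49 members were higher and 29 lower, and 3866 and 4106 of all listed genes, and *Gadd45a* lost its call (adjusted p = 0.0104, edgeR).

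The table is a selection of genes that passed the authors' test, so a count of calls describes listed genes and not the transcriptome. Depth limits *Btg4*, *Cdk15* and *Cdkl1*, with few reads per library.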
